A study of Mus musculus with 18 samples.

Results

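The genes described here carry glucose through glycolysis to pyruvate and lactate, move glucose, lactate and pyruvate across membranes, control the entry of pyruvate into mitochondria, or belong to the pentose phosphate pathway. A list of 39 such genes was matched by current or former symbol to array probe sets annotated with exactly 1 gene. Of the 39, 36 matched, through 75 probe sets, among 18194 genes represented on the arrays, and 35 passed the filter on low values that left 12247 genes for testing. Slc16a7, a monocarboxylate transporter, did not pass, with log2 values of 3.65 to 4.25 on all 18 arrays, and Gpi1, Eno1 and G6pdx had no probe set annotated with a single gene and were not analysed here.

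Messenger RNA of mouse cumulus cells, the granulosa cells that enclose the oocyte in antral follicles, was measured on 18 Affymetrix arrays, 3 in each of 6 groups. The groups were oocyte-free complexes cultured with oocytes (cocultures), oocyte-free complexes (OOX, cumulus shells whose oocyte had been taken out) and intact cumulus-oocyte complexes (COC), each cultured with estrogen (E2) and without it. All cells came from female mice and all had been cultured, and the labels used here give no strain, age, dose or culture time and do not say whether replicates were separate cultures, so the tests measure only the spread between arrays, whatever its source. Array 5 is E2 OOX by its title but OOX without estrogen by its source name and treatment, and it was analysed by its title.

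Glycolysis splits glucose into pyruvate, which lactate dehydrogenase converts to lactate, while the pentose phosphate pathway draws off glucose 6-phosphate to make NADPH and ribose. Several steps have isozymes from separate genes, such as the muscle (Ldha) and heart (Ldhb) forms of lactate dehydrogenase. Mouse oocytes use glucose poorly and take pyruvate from their cumulus cells, and oocyte-secreted factors are known to promote glycolysis in mouse cumulus cells.

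Values are log2 expression values, and replicates are listed in the order of their array numbers: 3, 9 and 15 in cocultures, 6, 12 and 18 in E2 cocultures, 2A, 8 and 14 in OOX, 5, 11 and 17 in E2 OOX, 1, 7 and 13 in COC, and 4, 10 and 16 in E2 COC. Each log2 change carries its standard error from a limma fit over all 18 arrays, and a gene was called higher or lower where the p-value adjusted over the 12247 genes was under 0.05. Array medians lay between 5.51 and 5.71. The values of array 14 were the most narrowly spread (interquartile range 2.54, with 2.70 to 3.06 on the rest), and its best correlation within its group was 0.944. The array names fall into 3 series, with 13, 2 and 3 arrays. Series 1 held every COC, E2 COC and E2 coculture array and none of the OOX arrays. Array 14 shared series 2 with coculture array 9, and arrays 2A and 8 shared series 3 with E2 OOX array 17. Oocyte removal without estrogen, and any difference of its effect with estrogen, thus cannot be told apart from array series. A fit with array series as a term adjusts for it only through arrays 9 and 17. Across the 10 granulosa and cumulus markers, all of which passed the filter, the mean log2 value of an array was 8.93 to 9.09 in OOX against 9.59 to 9.74 in COC, and 9.46 to 9.86 in E2 OOX against 10.26 to 10.46 in E2 COC. These markers did not fall together: 6 were called lower and 2, Foxl2 and Amhr2, higher in OOX than in COC, and 5 were lower and 0 higher in E2 OOX than in E2 COC, Amhr2 among the lower. The mean over the 3 mural granulosa markers with a probe set was 7.31 to 7.62 in OOX against 5.63 to 6.12 in COC, and 6.91 to 7.51 in E2 OOX against 6.18 to 6.50 in E2 COC. Of these markers Kitl was called higher in both removals (group means 10.80 in OOX against 6.21 in COC, and 10.36 in E2 OOX against 7.26 in E2 COC), Cyp11a1 was called lower with estrogen, and Star was called in neither. Of 11 oocyte markers, Gdf9 lay above the array median on all 18 arrays, Dppa3 on 16, Figla on 15 and Ooep on 13, and these 4, the ones tested, were called in no comparison. Nlrp5 lay above it on 2 arrays, Zp3 and Padi6 on 1 each, and Bmp15, Zp1, Zp2 and Oosp1 on 0. None of the 8 endothelial and blood markers passed the filter, and 3 of 7 theca and stroma markers did. Of these 3, Pdgfra was called in no comparison, and Gli1 and Ptch1, which respond to hedgehog signals, were called lower in OOX than in COC, higher in cocultures than in OOX, and lower with estrogen in intact complexes and cocultures. With estrogen Ptch1 went the opposite way, higher in E2 OOX than in E2 COC and lower in E2 cocultures than in E2 OOX, while Gli1 was called in neither, and Ptch1 was higher in E2 OOX than in OOX. The part of these marker differences in the results below was not tested.

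Most enzymes between fructose 6-phosphate and lactate were lower after the oocyte had been removed, whether estrogen was present or not. Without estrogen 16 of the 35 genes were called lower and 6 higher in OOX than in COC, where 20.7% of all tested genes were lower and 18.0% higher (38.7% in all). With estrogen 17 were called lower and 3 higher in E2 OOX than in E2 COC, against 17.3% of all tested genes lower and 12.9% higher (30.2% in all). The same 16 genes were lower in both comparisons: Slc2a1, Pfkl, Pfkp, Pfkfb3, Fbp1, Aldoa, Aldoc, Tpi1, Gapdh, Pgk1, Pgam1, Pkm, Ldha, Slc16a1, Slc16a3 and Pdk1. Eno2, Ldhb and Pdk4 were higher in both. Of the called genes, Fbp1 and Slc16a3 passed the filter only through arrays with oocytes, Fbp2 only and Eno2 mainly through oocyte-free arrays. The filter favours such changes, so their share in these counts and in the lack of overlap is not support. Without any filter and without estrogen, 17 of the 36 genes were lower and 5 higher (2556 and 2364 of all 18194). With estrogen 17 were lower and 3 higher (2138 and 1593 of all). Without array 14 the counts called were 20 and 21, without array 5 they were 22 and 21, and with array 5 placed by its source name 20 and 19. Under that placement Slc16a1 (-0.52, limma adjusted p = 0.256), Slc2a3 and Fbp2 lost their calls without estrogen. Pfkl, Aldoa and Eno2 lost theirs with estrogen (adjusted p = 0.0760, 0.0799 and 0.0675). The arrays of the compared groups did not overlap for 23 of the 35 genes in each comparison, against 45.8% of all tested genes without and 44.4% with estrogen. The median log2 change over the 35 genes was -0.42 without and -0.44 with estrogen, against 0.01 and -0.05 over all tested genes. In bulk RNA of this kind, fewer cells of a type and less RNA per cell cannot be told apart.

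**Figure D1:**
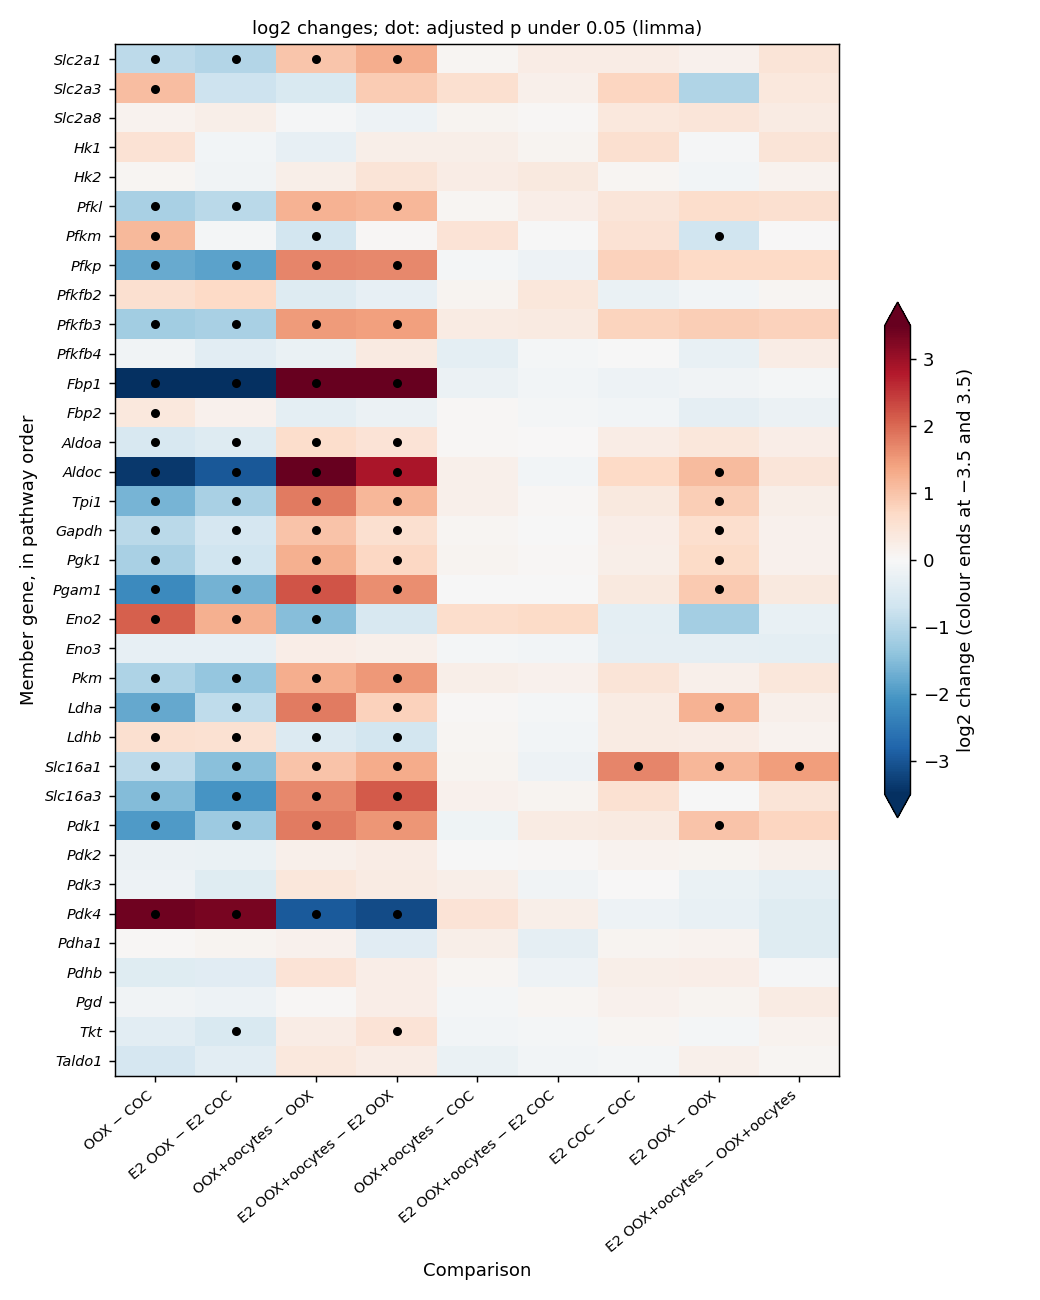
Log2 changes of the 35 tested genes (rows, by step of the pathway) in 9 comparisons (columns), coloured from lower to higher, with a dot where limma called the gene. The 16 genes lower after oocyte removal form the same rows that are higher with added oocytes, and the columns of cocultures against intact complexes hold no dot.

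Glucose enters cumulus cells through facilitative transporters. Slc2a1 (GLUT1), the widely expressed basal transporter, had log2 values of 8.89, 8.97 and 7.78 in OOX, against 9.55, 9.51 and 9.30 in COC. All 3 OOX arrays lay below all 3 COC arrays, array 14 furthest, and the log2 change was -0.91 ± 0.239 (limma, adjusted p = 0.00587). Without array 14 it was -0.52 and stayed called. With estrogen Slc2a1 had 8.78, 8.48 and 8.84 in E2 OOX, against 9.85, 9.55 and 9.75 in E2 COC, a log2 change of -1.02 ± 0.239 (limma, adjusted p = 0.00345), again with no overlap. Slc2a3 (GLUT3), a high-affinity transporter, lay near the array medians and spread widely, at 5.45, 6.64 and 7.37 in OOX, against 5.69, 5.56 and 4.95 in COC. The groups overlapped, the call of a rise (1.09 ± 0.406, limma adjusted p = 0.0421) was lost without array 14 (log2 change 0.65, limma adjusted p = 0.219) and without any of 7 other arrays taken singly, and with estrogen the change was -0.72 ± 0.406 (adjusted p = 0.203). Slc2a8 (GLUT8) and the hexokinases Hk1 and Hk2, which trap glucose as its 6-phosphate, passed no test in any comparison, at 7.38 to 8.57, 7.45 to 8.61 and 7.84 to 8.66 on the log2 scale over all 18 arrays.

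Phosphofructokinase 1 makes the committed step of glycolysis, and its 3 genes did not move as 1 group. The platelet form Pfkp fell most, with 7.61, 7.86 and 6.66 in OOX against 9.29, 8.99 and 9.14 in COC, and 8.01, 7.75 and 8.48 in E2 OOX against 10.10, 9.82 and 9.95 in E2 COC. No oocyte-free array reached the lowest intact array in either condition, and the log2 changes were -1.76 ± 0.297 and -1.88 ± 0.297 (limma, adjusted p = 0.000151 and 0.00011). The liver form Pfkl had 10.42, 10.29 and 9.36 in OOX against 11.29, 11.23 and 10.94 in COC, and 10.63, 10.07 and 11.20 in E2 OOX against 11.76, 11.39 and 11.55 in E2 COC. Its groups did not overlap, and it fell by 1.13 and by 0.93 on the log2 scale (SE 0.309, limma adjusted p = 0.00752 and 0.0289). Of the 3 Pfkl probe sets, the weakest (mean 7.04 over all arrays) moved the opposite way. Its log2 changes were 0.76 and 1.32, both called in a fit of all 21259 probe sets. The remaining probe set (mean 9.65) fell like the representative one. It had 8.85, 8.64 and 8.00 in OOX against 9.84, 9.76 and 9.56 in COC, and 9.29, 8.50 and 9.91 in E2 OOX against 10.38, 10.08 and 10.07 in E2 COC. The direction of Pfkl thus depends on the probe set, and the mean of its probe sets was called in neither comparison (-0.53 and -0.18). The call with estrogen was also lost without array 4, 5, 11 or 16. The muscle form Pfkm was higher without estrogen, at 7.99, 7.96 and 8.08 in OOX against 7.02, 6.92 and 6.71 in COC (1.13 ± 0.189, limma adjusted p = 0.000143), with no overlap. With estrogen it had 7.48, 6.88 and 7.61 in E2 OOX against 7.50, 7.11 and 7.53 in E2 COC, overlapping groups with a log2 change of -0.06 ± 0.189 (adjusted p = 0.859).

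The bifunctional enzymes of the Pfkfb family set the level of fructose 2,6-bisphosphate, an activator of phosphofructokinase 1. Pfkfb3, the form with the highest kinase activity, had 5.44, 5.88 and 5.27 in OOX against 7.28, 6.68 and 6.25 in COC, and 6.84, 5.90 and 6.43 in E2 OOX against 7.67, 7.15 and 7.73 in E2 COC. The groups did not overlap, and the log2 changes were -1.21 ± 0.287 and -1.13 ± 0.287 (limma, adjusted p = 0.00286 and 0.00608). With array series in the fit, the change without estrogen was -0.97 and not called (limma, adjusted p = 0.0848). Averaged over its probe sets, the change with estrogen was -0.42 and no longer called. Pfkfb2 and Pfkfb4 were called in no comparison, at 5.86 to 7.49 and 6.55 to 7.33.

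The largest change of the set was in Fbp1, fructose-1,6-bisphosphatase, which runs the phosphofructokinase 1 step in reverse and serves gluconeogenesis in liver. Fbp1 had 4.09, 3.77 and 4.63 in OOX and 4.20, 4.10 and 3.82 in E2 OOX, against 9.09, 9.76 and 9.29 in COC and 9.24, 9.09 and 9.24 in E2 COC. It lay below the array median on all 6 oocyte-free arrays and above it on the 12 arrays with oocytes, so it entered the test only through the arrays with oocytes. The log2 change was -5.22 ± 0.210 without and -5.15 ± 0.210 with estrogen, and since the filter itself favours such a pattern, the p-values given are those of the fit without any filter (limma, adjusted p = 4.33e-11 and 7.33e-11). No detection calls were used, so the oocyte-free levels of Fbp1 were not told apart from background and no fold is given. The muscle form Fbp2, whose start site lies 29.9 kb from that of Fbp1 on chromosome 13, had 5.56, 5.86 and 6.01 in OOX against 5.56, 5.31 and 5.45 in COC. These groups shared the value 5.56, and the call of a rise (0.37 ± 0.136, limma adjusted p = 0.0395) was lost when array 7, 8, 13, 14 or 18 was left out. Fbp2 passed the filter through 4 arrays, 3 of them OOX and 1 E2 OOX, so the filter favours such a rise and its p-value is not support for it. With estrogen the change of Fbp2 was 0.14 ± 0.136 (adjusted p = 0.491).

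Aldolase splits fructose 1,6-bisphosphate into 2 trioses. Aldoc, the form typical of brain, had 6.33, 6.33 and 6.24 in OOX against 9.65, 9.78 and 9.61 in COC, and 8.09, 6.98 and 7.17 in E2 OOX against 10.62, 10.06 and 10.48 in E2 COC. No oocyte-free array reached the lowest intact array, and the 3 OOX arrays lay within 0.09 of each other. Aldoc was 10.4-fold lower without estrogen (-3.38 ± 0.282, limma adjusted p = 6.18e-08) and 7.85-fold lower with it (-2.97 ± 0.282, adjusted p = 3.42e-07). Aldoa, the common form, moved much less, with values of 12.20, 12.25 and 11.82 in OOX against 12.70, 12.64 and 12.63 in COC, and 12.51, 12.35 and 12.56 in E2 OOX against 12.91, 12.94 and 12.90 in E2 COC. Its log2 changes were -0.57 ± 0.145 and -0.44 ± 0.145 (limma, adjusted p = 0.00477 and 0.0271), without overlap, and the call with estrogen was lost when any of the E2 COC arrays or array 11 was left out.

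The enzymes that carry the trioses on to phosphoenolpyruvate fell at each step measured by a single gene. Tpi1, which interconverts the trioses, had 11.28, 11.46 and 10.89 in OOX against 12.84, 12.87 and 12.84 in COC, and 12.23, 12.05 and 11.90 in E2 OOX against 13.29, 13.07 and 13.24 in E2 COC. It fell by 1.64 (0.168 SE) and by 1.14 on the log2 scale (limma, adjusted p = 6.84e-07 and 5.29e-05), and no arrays overlapped. Gapdh, the dehydrogenase of the pathway and a common reference gene, had 12.39, 12.51 and 12.40 in OOX against 13.40, 13.41 and 13.28 in COC, and 13.24, 12.97 and 12.84 in E2 OOX against 13.63, 13.55 and 13.64 in E2 COC. The log2 changes were -0.93 ± 0.139 and -0.59 ± 0.139 (limma, adjusted p = 4.52e-05 and 0.00348). Pgk1, which makes the first ATP of the pathway, had 11.71, 11.44 and 10.78 in OOX against 12.47, 12.45 and 12.44 in COC, and 12.04, 11.81 and 12.06 in E2 OOX against 12.70, 12.64 and 12.67 in E2 COC. Its groups did not overlap, and it changed by -1.14 ± 0.176 and -0.70 ± 0.176 (limma, adjusted p = 6.16e-05 and 0.00556). Pgam1, the phosphoglycerate mutase, fell most of these enzymes, with 8.39, 8.21 and 8.05 in OOX against 10.33, 10.52 and 10.45 in COC and 9.79, 8.91 and 8.69 in E2 OOX against 10.94, 10.62 and 10.76 in E2 COC. It was 4.65-fold and 3.12-fold lower (-2.22 ± 0.232 and -1.64 ± 0.232, limma adjusted p = 8.62e-07 and 3.28e-05), and array 5 was the highest E2 OOX array.

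**Figure D2:**
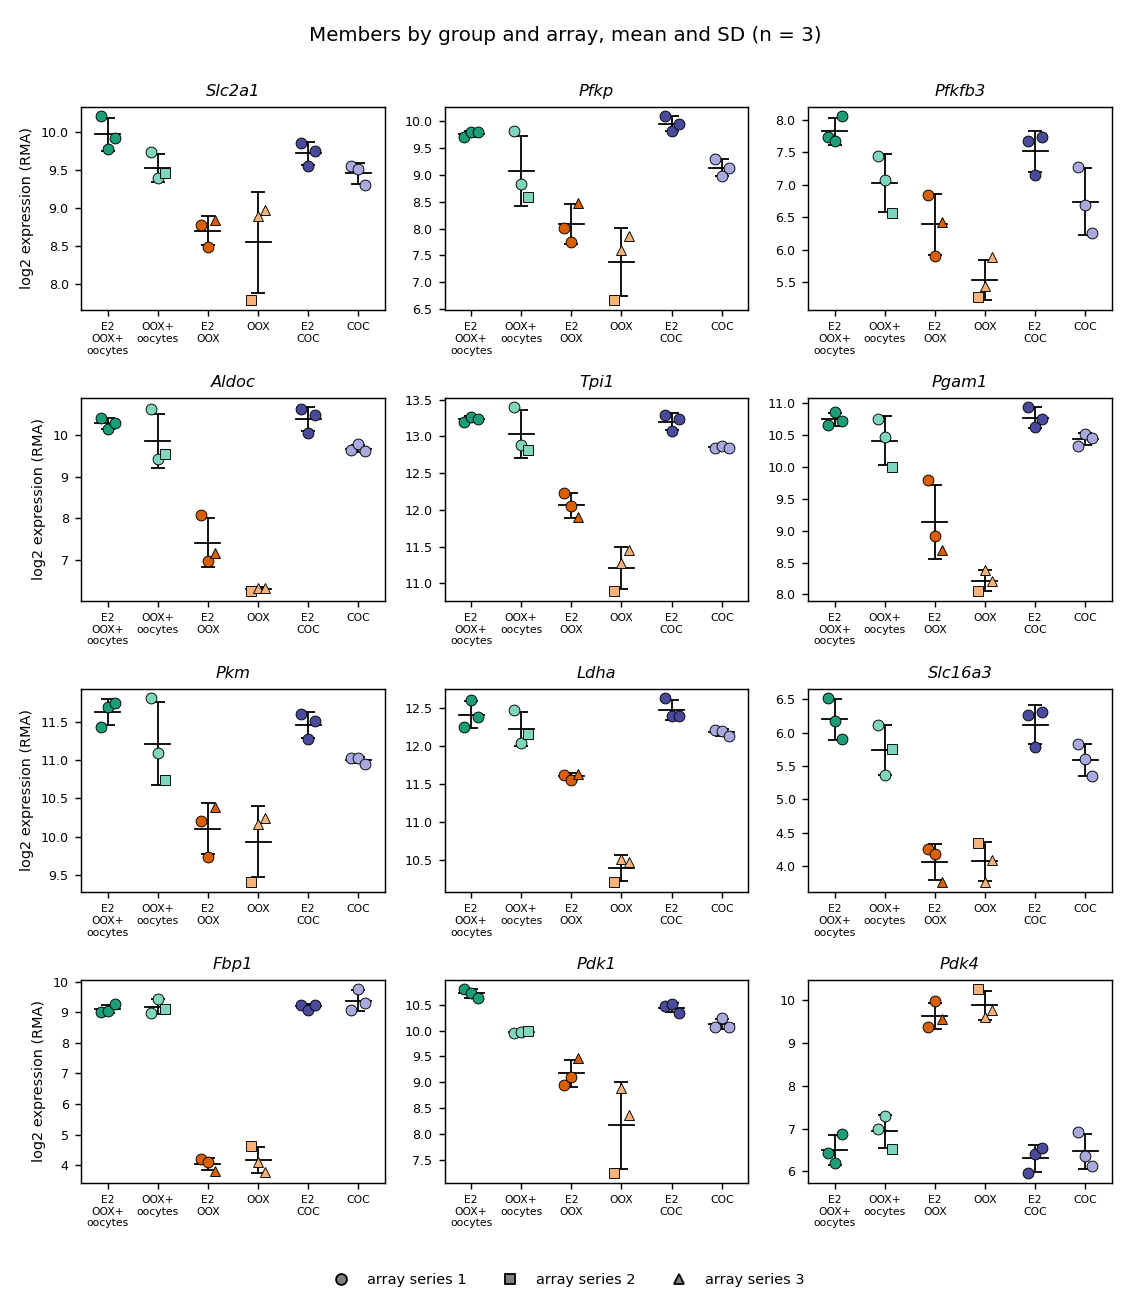
Log2 expression of 12 genes on each array (points), by group, with the mean and SD of 3 arrays. For Fbp1, Aldoc, Pgam1 and Ldha every oocyte-free array lies below every array with oocytes, and for Pdk4 every oocyte-free array lies above. The filter favours the split of Fbp1.

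The 3 probe sets for Gapdh, which are the array's control probe sets for the 3' end, the middle and the 5' end of the message, all fell but by different amounts. Without estrogen the log2 changes were -0.93 at the 3' end, -1.87 in the middle and -3.17 at the 5' end, and with estrogen -0.59, -1.08 and -2.21. The difference between the Gapdh 3' and 5' values of an array, a measure of how far RNA and its amplified copies reach back from the 3' end, was 4.31 to 4.52 in OOX against 2.11 to 2.24 in COC, and 2.96 to 4.10 in E2 OOX against 1.84 to 1.93 in E2 COC. In cocultures it was 1.95 to 2.57, and in E2 cocultures 1.83 to 2.38. The same measure for Actb, beta actin, was 1.48 to 1.75 in OOX against 0.91 to 1.33 in COC, and 0.70 to 1.47 in E2 OOX against 1.12 to 1.50 in E2 COC. The 3' end of Actb itself changed by -0.11 without (limma, adjusted p = 0.546) and 0.11 with estrogen (adjusted p = 0.569). The part of RNA reach in the falls of these genes was not tested. Averaging all probe sets of a gene moved several removal changes without estrogen while keeping their calls, to -1.99 for Gapdh, -1.73 for Aldoc, -1.03 for Pdk1, -0.76 for Pfkfb3 and -0.45 for Slc16a1.

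**Figure D3:**
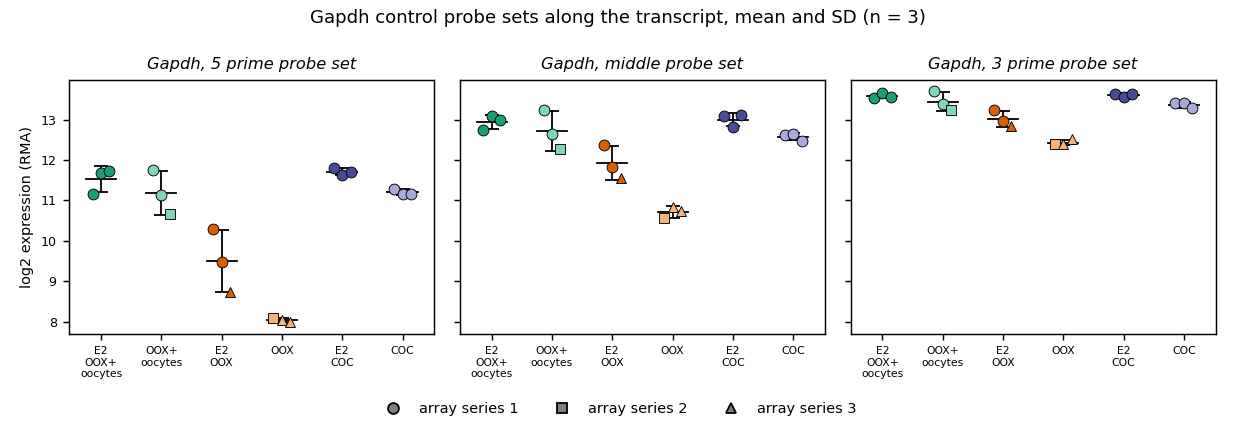
Log2 values of the 3 Gapdh control probe sets (3' end, middle, 5' end) on each array, by group. The drop towards the 5' end is steepest in the oocyte-free arrays, while cocultures and intact complexes run close together.

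Pyruvate kinase fell and the neuronal enolase rose. Pkm, pyruvate kinase, had 10.16, 10.24 and 9.40 in OOX against 11.02, 11.03 and 10.95 in COC, and 10.20, 9.73 and 10.38 in E2 OOX against 11.60, 11.27 and 11.51 in E2 COC, with no overlap and log2 changes of -1.07 ± 0.252 and -1.36 ± 0.252 (limma, adjusted p = 0.00272 and 0.000486). Of the enolases, which act just before it, Eno2, the neuronal form, had 6.49, 7.53 and 6.08 in OOX against 5.30, 4.41 and 4.11 in COC, and 5.30, 4.92 and 6.32 in E2 OOX against 4.31, 4.52 and 3.94 in E2 COC. The groups did not overlap, and Eno2 changed by 2.09 ± 0.400 and 1.26 ± 0.400 (limma, adjusted p = 0.000475 and 0.0237). The rise without estrogen was 1.17 and not called (adjusted p = 0.0860) with array series in the fit, and that with estrogen was lost without array 4, 16 or 17 (without 17, 0.85 and adjusted p = 0.139). Eno2 passed the filter through 5 arrays, of which 3 were OOX, 1 E2 OOX and 1 coculture. The filter itself thus favours a rise in oocyte-free arrays, and the p-values and lack of overlap are not support for it. Without any filter Eno2 was still called in both removals. Eno3, the muscle form, lay at 6.49 to 7.54 and was called in no comparison.

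Ldha, the lactate dehydrogenase form that favours making lactate, had 10.51, 10.47 and 10.20 in OOX against 12.21, 12.20 and 12.13 in COC, and 11.61, 11.55 and 11.63 in E2 OOX against 12.63, 12.40 and 12.39 in E2 COC. All oocyte-free arrays lay below the intact ones, those without estrogen further, and the log2 changes were -1.79 ± 0.144 (3.45-fold lower) and -0.88 ± 0.144 (1.84-fold lower), with limma adjusted p = 3.97e-08 and 0.000151. Ldhb, the form that favours lactate use, had 12.11, 11.87 and 12.01 in OOX against 11.37, 11.49 and 11.46 in COC, and 12.32, 12.05 and 12.44 in E2 OOX against 11.80, 11.69 and 11.69 in E2 COC. It rose without overlap in both conditions, by 0.56 ± 0.140 and 0.54 ± 0.140 (limma, adjusted p = 0.00429 and 0.00664).

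Monocarboxylate transporters carry lactate and pyruvate across the cell membrane. Slc16a3 (MCT4), the form typical of lactate-exporting cells, had 3.76, 4.09 and 4.35 in OOX and 4.25, 4.18 and 3.75 in E2 OOX, against 5.83, 5.60 and 5.35 in COC and 6.26, 5.78 and 6.31 in E2 COC. It was below the array median on all 6 oocyte-free arrays and above it on 10 of the 12 others, so it too entered the test only through arrays with oocytes. Its log2 changes were -1.53 ± 0.229 and -2.06 ± 0.229, against levels not told apart from background (limma without any filter, adjusted p = 7.04e-05 and 3.84e-06). Slc16a1 (MCT1), which works in both directions, had 7.72, 7.93 and 7.30 in OOX against 8.51, 8.64 and 8.52 in COC, a log2 change of -0.91 ± 0.263 (limma, adjusted p = 0.011). That call was lost without array 14 (-0.73, adjusted p = 0.0510) and with array series in the fit (-0.55, adjusted p = 0.190). With estrogen Slc16a1 had 9.19, 8.36 and 8.85 in E2 OOX against 10.14, 10.25 and 10.40 in E2 COC, without overlap, and changed by -1.46 ± 0.263 (limma, adjusted p = 0.000363).

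Pyruvate dehydrogenase kinases switch off the complex that turns pyruvate into acetyl-CoA, and 2 of the 4 kinase genes moved strongly, in opposite directions. Pdk4, known in muscle and liver as the form raised in fasting, had 9.61, 9.78 and 10.26 in OOX and 9.38, 9.97 and 9.55 in E2 OOX, against 6.92, 6.36 and 6.13 in COC and 5.95, 6.41 and 6.55 in E2 COC. Every oocyte-free array lay above every intact array, and Pdk4 was 10.7-fold and 10.1-fold higher (3.41 ± 0.260 and 3.33 ± 0.260, limma adjusted p = 2.08e-08 and 3.8e-08). Pdk1, known as a target of hypoxia-inducible factor, had 8.89, 8.36 and 7.23 in OOX against 10.07, 10.25 and 10.07 in COC, and 8.95, 9.10 and 9.46 in E2 OOX against 10.47, 10.51 and 10.34 in E2 COC. It fell without overlap, by 1.97 and 1.27 on the log2 scale (SE 0.271, limma adjusted p = 1.94e-05 and 0.00162). Pdk2 (5.10 to 5.82), Pdk3 (7.40 to 8.70) and the genes for the E1 subunits of the dehydrogenase itself, Pdha1 (7.45 to 8.27) and Pdhb (9.14 to 10.09), were called in no comparison on their representative probe sets. The other Pdha1 probe set was called higher in both removals (0.72 and 1.03, limma over all probe sets).

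Of the 3 pentose phosphate genes tested, 1 was called on its representative probe set, in 1 of the removal comparisons. Pgd, the oxidative-branch dehydrogenase that yields NADPH and ribulose 5-phosphate, lay at 11.50 to 11.88 over the 6 oocyte-free arrays against 11.77 to 12.08 over the 6 intact ones, with log2 changes of -0.11 ± 0.131 and -0.17 ± 0.131 (limma, adjusted p = 0.546 and 0.357). Another of its 4 probe sets had 8.49, 8.84 and 8.69 in OOX against 9.12, 9.67 and 9.46 in COC and was called lower there (-0.74) and higher in cocultures than in OOX (0.90), but not with estrogen (-0.38 and 0.53, limma over all probe sets). Taldo1, transaldolase, changed by -0.59 ± 0.274 and -0.36 ± 0.274 (adjusted p = 0.098 and 0.366), with array 14 at 9.16 and the other oocyte-free arrays at 10.04 to 10.55. Tkt, transketolase, had 12.19, 12.10 and 11.65 in OOX against 12.37, 12.34 and 12.33 in COC, a change of -0.37 ± 0.142 (limma, adjusted p = 0.0502), and 11.86, 11.75 and 12.09 in E2 OOX against 12.46, 12.36 and 12.46 in E2 COC, where it fell by 0.53 (adjusted p = 0.00904). Of the other 2 Tkt probe sets, 1 was called lower in both comparisons (-0.91 and -0.94, limma over all probe sets) and 1 only with estrogen (-1.04, against -0.06 without).

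Oocytes cultured with oocyte-free complexes were accompanied by the opposite pattern. Without estrogen 16 of the 35 genes were called higher and 4 lower in cocultures than in OOX, where 19.8% of all tested genes were higher and 13.4% lower (33.2% in all). With estrogen 17 were called higher and 2 lower in E2 cocultures than in E2 OOX, against 14.2% of all tested genes higher and 10.4% lower (24.6% in all). Without array 5 the counts were 21 and 18, with array 5 placed by its source name 17 and 16, and without array 14 they were 21 and 20. These comparisons use the same OOX and E2 OOX arrays as the removal comparisons, so they are not independent of them, and the values of those arrays are the ones given above. The 16 genes called lower in both removals were the 16 called higher in both additions, and Ldhb and Pdk4 were called lower in both additions. Among the 16, Fbp1 and Slc16a3 passed the filter only through arrays with oocytes, and Eno2, called lower without estrogen, mainly through oocyte-free arrays. The filter favours these changes, so their calls and lack of overlap are not support for them. Without any filter 16 of the 36 genes were higher and 4 lower without estrogen (2403 and 1752 of all 18194). With estrogen 17 were higher and 2 lower (1718 and 1264 of all). Groups did not overlap for 21 of the 35 genes without and 25 with estrogen, against 38.3% and 38.0% of all tested genes. The median log2 change over the 35 genes was 0.39 without and 0.47 with estrogen, against 0.02 and 0.03 over all tested genes.

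Fbp1 had 8.97, 9.12 and 9.45 in cocultures and 9.01, 9.03 and 9.26 in E2 cocultures, with log2 changes against OOX and E2 OOX of 5.02 ± 0.210 and 5.06 ± 0.210 (limma without any filter, adjusted p = 5.61e-11 and 1.30e-10). Aldoc had 10.62, 9.56 and 9.43 in cocultures and 10.41, 10.14 and 10.30 in E2 cocultures, 11.9-fold and 7.31-fold higher than without oocytes (3.57 ± 0.282 and 2.87 ± 0.282). Every coculture array of both genes lay above every oocyte-free array, a split that the filter favours for Fbp1. Pgam1 had 10.76, 10.00 and 10.47 in cocultures and 10.66, 10.86 and 10.72 in E2 cocultures (2.19 ± 0.232 and 1.62 ± 0.232, limma adjusted p = 1.28e-06 and 5.09e-05). Ldha had 12.47, 12.16 and 12.04 in cocultures and 12.25, 12.60 and 12.38 in E2 cocultures, with log2 changes of 1.83 ± 0.144 and 0.81 ± 0.144 (limma, adjusted p = 3.73e-08 and 4e-04). Both enzymes were higher on all coculture arrays than on all matching oocyte-free arrays. Pdk4 fell to 6.99, 6.53 and 7.29 in cocultures and 6.43, 6.19 and 6.88 in E2 cocultures, by 2.95 and 3.13 on the log2 scale (limma, adjusted p = 1.51e-07 and 1.06e-07). Ldhb, at 11.62, 11.30 and 11.60 in cocultures and 11.68, 11.46 and 11.75 in E2 cocultures, changed by -0.49 ± 0.140 and -0.64 ± 0.140 (adjusted p = 0.0119 and 0.00251).

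Slc2a1, both tested monocarboxylate transporters and Pdk1 were higher with oocytes as well, while Slc2a3, Slc2a8, Hk1, Hk2, Pfkfb2, Pfkfb4, Pdk2 and Pdk3 were called in neither comparison. Slc2a1 had 9.73, 9.46 and 9.39 in cocultures and 10.21, 9.78 and 9.92 in E2 cocultures (0.98 ± 0.239 and 1.27 ± 0.239, limma adjusted p = 0.00414 and 0.000709), and without array 14 the change without estrogen was 0.60 and still called. Slc16a3, at 6.11, 5.75 and 5.36 in cocultures and 6.52, 6.17 and 5.91 in E2 cocultures, rose by 1.67 ± 0.229 and 2.14 ± 0.229 (limma without any filter, adjusted p = 3.52e-05 and 3.41e-06). Slc16a1, at 8.93, 7.95 and 9.04 in cocultures and 9.89, 9.94 and 10.46 in E2 cocultures, rose by 0.99 ± 0.263 and 1.30 ± 0.263 (limma, adjusted p = 0.00752 and 0.00138). Coculture array 9 was the lowest of its group for Slc16a1, at 7.95 against 7.93 on the highest OOX array. Pdk1, at 9.96, 10.00 and 9.97 in cocultures and 10.80, 10.73 and 10.63 in E2 cocultures, rose by 1.82 ± 0.271 and 1.55 ± 0.271 (adjusted p = 5.58e-05 and 0.00036). Pfkp, Pfkl and Pfkfb3 rose by 1.70, 1.21 and 1.50 without and by 1.69, 1.15 and 1.43 with estrogen, while Tpi1, Gapdh, Pgk1, Pkm and Aldoa rose by 0.61 to 1.82 without and 0.47 to 1.52 with it. Pfkm and Eno2 were lower in cocultures than in OOX without estrogen (-0.64 ± 0.189 and -1.49 ± 0.400, limma adjusted p = 0.0149 and 0.00815), and neither was called with estrogen (0.05 ± 0.189 and -0.57 ± 0.400). Tkt was called higher with estrogen (0.47 ± 0.142, adjusted p = 0.0218) and not without (0.27 ± 0.142, adjusted p = 0.162). Leaving out array 9 ended the calls of Pfkm and Ldhb without estrogen, leaving out array 8 or 15 that of Eno2, leaving out array 11 that of Pfkl with estrogen, leaving out array 6, 11 or 18 that of Aldoa with estrogen, and leaving out any of arrays 5, 6, 11, 12 and 18 that of Tkt. With array series in the fit, Pfkm (-0.55), Ldhb (-0.45) and Eno2 (-0.67, limma adjusted p = 0.263) were not called without estrogen. With array 5 placed by its source name, the calls of Pfkm, Eno2 and Slc16a1 (0.61, adjusted p = 0.210) without and of Aldoa, Ldha (0.82, adjusted p = 0.0541) and Tkt with estrogen were lost.

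Within series 2, coculture array 9 minus OOX array 14 was 4.49 for Fbp1, 1.96 for Ldha and -3.73 for Pdk4, differences of single arrays that are also part of the full comparison. Within series 1, which holds no OOX array without estrogen, 21 of the 35 genes were called after removal with estrogen (2 higher, 19 lower) and 20 with added oocytes and estrogen (18 higher, 2 lower). In the same fit 3997 and 3253 of all 12247 tested genes were called.

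Cocultures were then set against intact complexes. None of the 35 genes was called in either condition by limma, where 0.00817% of all tested genes were called without estrogen and 0% with it, and at an unadjusted p under 0.05 the counts were 1 and 0. The median log2 difference of the 35 genes was 0.08 without and 0.03 with estrogen. Fbp1 differed by -0.20 ± 0.210 and -0.09 ± 0.210, Aldoc by 0.19 ± 0.282 and -0.10 ± 0.282, Ldha by 0.04 ± 0.144 and -0.06 ± 0.144, and Pdk4 by 0.47 ± 0.260 and 0.20 ± 0.260. The widest differences were 0.61 ± 0.400 and 0.68 ± 0.400 in Eno2 (limma, adjusted p = 0.908 and 1). Differences of the size of these standard errors would not have been detected. In the fit of all probe sets, the Pfkl probe set that rose after removal was also called higher in E2 cocultures than in E2 COC (1.47, limma adjusted p = 0.0407).

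The isozymes of each step were compared with each other by how much each changed, averaged over both estrogen conditions, in an exact two-sided permutation test of arrays within conditions (400 arrangements, smallest possible p 0.005), with p-values adjusted over 21 pairs per comparison. Oocyte removal changed the isozymes by different amounts in 17 of 21 pairs, and in 13 pairs the signs were opposite. Pairs of 1 family share genes and are not independent. Pairs of unrelated genes were not tested, so no share over all genes stands beside the counts of pairs, here or for added oocytes. The opposite signs include small changes of uncalled genes, such as Hk1 (0.20) and Hk2 (-0.02). Aldoa exceeded Aldoc by 2.67 in log2 change and Pfkm exceeded Pfkp by 2.35 (each adjusted p = 0.00700, exact permutation). The difference was -1.88 for Ldha minus Ldhb and -4.99 for Pdk1 minus Pdk4, with the same adjusted p. Eno2 exceeded Eno3 by 1.96, and Fbp1 minus Fbp2 was -5.44. Fbp1 passed the filter only through arrays with oocytes, Fbp2 only through oocyte-free arrays and Eno2 mainly through them. The filter thus favoured a difference in these pairs, so no p-value is given for them, although both counts above include them. Without any filter 19 of 23 pairs differed on removal and 18 of 23 with added oocytes. Pfkl minus Pfkp was 0.79 and Pfkfb2 minus Pfkfb3 1.79. The pairs that missed the threshold were Slc16a1 and Slc16a3 (0.61, adjusted p = 0.0525), Hk1 and Hk2 (0.23, adjusted p = 0.105), Pdk2 and Pdk3 (0.09, adjusted p = 0.572), and Slc2a3 and Slc2a8 (0.01, adjusted p = 0.965). For added oocytes 16 of 21 pairs differed and 13 had opposite signs, with 1.89 for Ldha minus Ldhb, 5.31 for Fbp1 minus Fbp2 and 4.72 for Pdk1 minus Pdk4. The members of a pair were measured on the same arrays, and the probe set chosen for a gene decides its change.

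**Figure D4:**
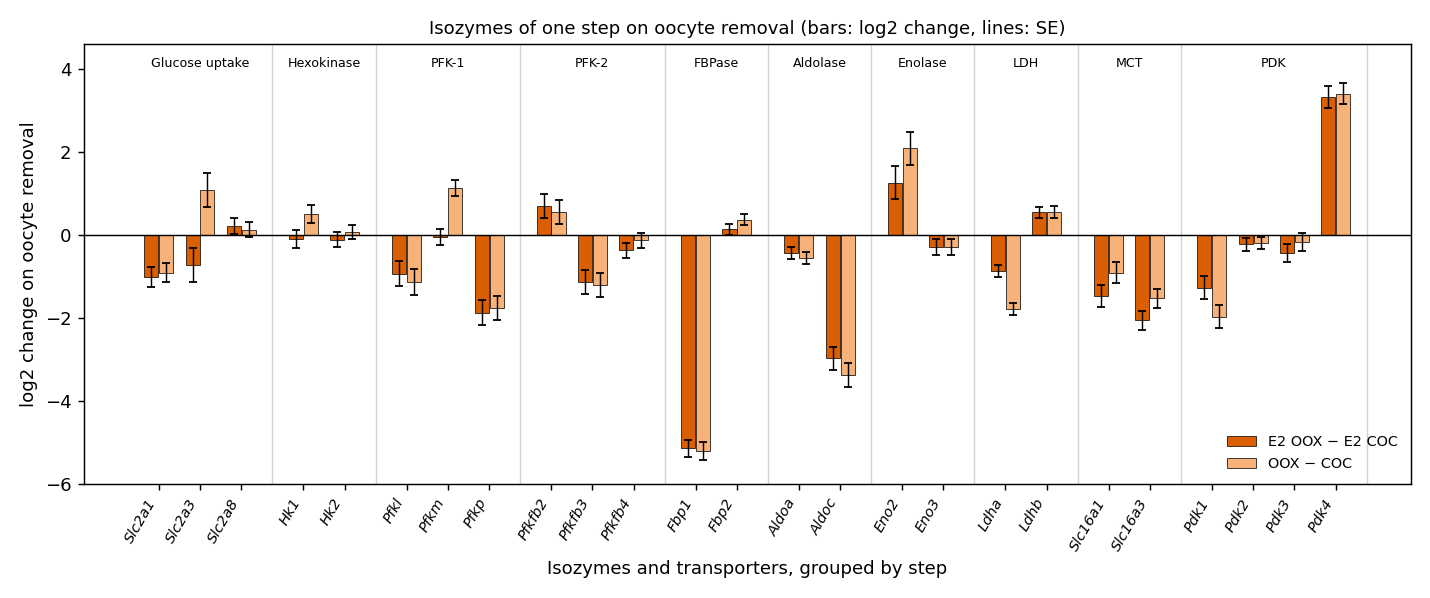
Log2 change after oocyte removal (bars, with SE as lines) of each gene, grouped by enzyme family, with estrogen on the left and without on the right of each gene. Within families the bars part, most widely between Fbp1 and Fbp2, a parting that the filter favoured, and between Pdk1 and Pdk4.

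The 250 bases before the start site are shown for 2 of these pairs, lactate dehydrogenase and fructose bisphosphatase, from RefSeq on the mouse build GRCm38.p6. The isozymes of both pairs differed in their changes, a difference that the filter favoured for Fbp1 and Fbp2. Capitals mark each base in a match to ACGTG, the core of the hypoxia-inducible factor motif, on either strand (read as CACGT on the other), and a CACGTG, the E-box, holds 2 such matches that overlap.
Ldha, chr7:46845554-46845803, + strand: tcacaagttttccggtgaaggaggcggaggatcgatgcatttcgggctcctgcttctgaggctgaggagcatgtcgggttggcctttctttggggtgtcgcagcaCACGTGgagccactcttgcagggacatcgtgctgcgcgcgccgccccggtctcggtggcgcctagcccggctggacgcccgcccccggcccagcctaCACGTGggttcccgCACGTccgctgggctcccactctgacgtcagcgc
Ldhb, chr6:142507958-142508207, - strand: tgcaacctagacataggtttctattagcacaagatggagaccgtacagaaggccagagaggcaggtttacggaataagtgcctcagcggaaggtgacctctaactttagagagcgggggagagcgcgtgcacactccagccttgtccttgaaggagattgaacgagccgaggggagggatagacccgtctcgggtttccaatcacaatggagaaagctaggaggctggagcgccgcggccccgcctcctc
Fbp1, chr13:62888283-62888532, - strand: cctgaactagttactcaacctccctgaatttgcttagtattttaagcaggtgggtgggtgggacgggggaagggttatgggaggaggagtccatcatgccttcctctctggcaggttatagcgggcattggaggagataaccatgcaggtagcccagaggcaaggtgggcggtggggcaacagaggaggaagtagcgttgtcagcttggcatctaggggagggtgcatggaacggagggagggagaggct
Fbp2, chr13:62858401-62858650, - strand: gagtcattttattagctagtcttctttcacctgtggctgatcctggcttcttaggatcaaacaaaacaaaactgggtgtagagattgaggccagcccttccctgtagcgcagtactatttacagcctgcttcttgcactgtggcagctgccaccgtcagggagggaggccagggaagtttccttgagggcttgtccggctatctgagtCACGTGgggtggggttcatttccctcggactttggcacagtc
The Ldha window held 5 matches, at -145, -144, -48, -47 and -34 from the start site (first base of each match, with -1 the last base printed), and the Ldhb window held 0. Ldha has another start site in the table, whose window (chr7:46846832-46847081) held 0 matches and is not printed. Of the other pair the Fbp2 window held 2 matches, at -42 and -41, and the Fbp1 window held 0. The call of Fbp2 as higher without estrogen was favoured by the filter, as given above.

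Windows were found for 34 of the 36 genes, without Slc2a3 and Slc16a7, and numbered 49, since several genes have more than 1 start site and such windows can overlap. ACGTG was in 20 of the 49 (40.8%), against 5444 of 32851 windows of all genes (16.6%), and CACGTG in 7 of the 49, against 6.02% of all windows. The full palindromic estrogen response element, with any 3 bases between its arms, was in 0 of the 49 and in 0.0639% of all windows. Among the 16 genes lower in both removals 9 had an ACGTG in at least 1 window, and among the other 18 genes 7 had. These are matches of letters, not binding sites, and a window without a match says nothing of the factor.

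Of the set, 1 gene was called higher with estrogen in every culture type. Slc16a1 had 10.14, 10.25 and 10.40 in E2 COC against 8.51, 8.64 and 8.52 in COC, and 9.89, 9.94 and 10.46 in E2 cocultures against 8.93, 7.95 and 9.04 in cocultures. All estrogen-treated arrays lay above all untreated ones of the same culture type, and the log2 changes were 1.71 ± 0.263 and 1.46 ± 0.263 (limma, adjusted p = 0.000466 and 0.00213). In E2 OOX it had 9.19, 8.36 and 8.85, against 7.72, 7.93 and 7.30 in OOX (1.15 ± 0.263, limma adjusted p = 0.0102), a call that was lost without array 5 (0.95, adjusted p = 0.0696). It was the only gene of the 35 called in intact complexes and in cocultures, where 5.78% and 4.65% of all tested genes were called. The median log2 change over the 35 genes was 0.26 in intact complexes and 0.19 in cocultures, against 0.03 and -0.01 over all tested genes. In oocyte-free complexes it was 0.15, against 0.003. A single call therefore does not mean that only Slc16a1 moved. Another Pfkp probe set was called higher in E2 COC than in COC (0.85, limma over all probe sets). Slc16a6, a related transporter outside the set, also rose with estrogen in both (1.25 ± 0.217 and 1.16 ± 0.217, limma adjusted p = 0.00145 and 0.00274).

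In oocyte-free complexes estrogen went with higher levels of 8 genes and a lower level of 1 (9 of 35), against 6.03% of all tested genes higher and 3.62% lower (9.65% in all). Ldha had 11.61, 11.55 and 11.63 in E2 OOX against 10.51, 10.47 and 10.20 in OOX, a log2 change of 1.20 ± 0.144 (limma, adjusted p = 4.63e-05), and the highest OOX array lay well below the lowest E2 OOX array. Tpi1 had 12.23, 12.05 and 11.90 against 11.28, 11.46 and 10.89 (0.85 ± 0.168, adjusted p = 0.00398), and Pdk1 8.95, 9.10 and 9.46 against 8.89, 8.36 and 7.23 (1.01 ± 0.271, adjusted p = 0.0254), without overlap. Aldoc (1.11 ± 0.282), Pgam1 (0.91 ± 0.232), Pgk1 (0.66 ± 0.176) and Gapdh (0.58 ± 0.139) were called higher as well, and Pfkm was called lower, at 7.48, 6.88 and 7.61 in E2 OOX against 7.99, 7.96 and 8.08 in OOX (-0.69 ± 0.189, adjusted p = 0.0286). Array 5, whose labels disagree on estrogen, was the highest E2 OOX array for Aldoc (8.09, with 6.98 and 7.17 on the other arrays), Pgam1 (9.79, with 8.91 and 8.69), Gapdh and Slc16a1, and lay with the others for Ldha. Without array 5, 3 genes stayed called (Ldha, Tpi1 and Pdk1), and with array 5 placed by its source name limma called 0 of the 35. Over all 12247 tested genes 526 were called without array 5, and 0 with it placed by its source name. The call of Pfkm was lost without any single array of 2A, 5, 8, 11 and 14, that of Pdk1 without 11 or 17, that of Pgk1 without 5, 14 or 17, and that of Pgam1 without 5 or 8. The changes were 0.55 for Pdk1 and 0.40 for Pgk1 without array 14, and 0.58 for Pgam1 without array 5. Another Aldoa probe set was called higher in E2 OOX than in OOX (0.90, limma over all probe sets). Within series 3, array 17 minus the mean of arrays 2A and 8 was 1.14 for Ldha and 0.84 for Aldoc, with 1 array on one side. The Gapdh 3' minus 5' difference was lower in E2 OOX than in OOX, as given above, and its part in these changes was not tested.

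**Figure D5:**
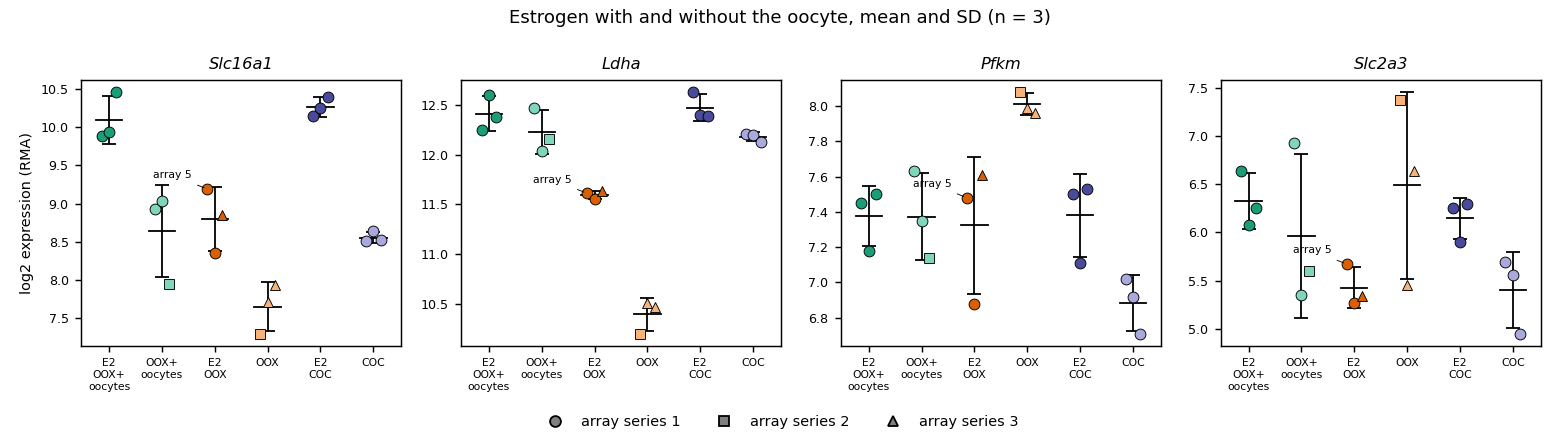
Log2 expression of Slc16a1, Ldha, Pfkm and Slc2a3 on each array (points) with group means and SD, estrogen-treated groups left of untreated ones, and array 5 marked. Slc16a1 is higher with estrogen in all 3 culture types, whereas Ldha parts mainly in the oocyte-free complexes.

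Whether the effect of oocyte removal itself differed with estrogen was tested as an interaction, which called 2 of the 35 genes, against 3.21% of all tested genes. For Ldha the fall was smaller with estrogen, by 0.91 ± 0.203 on the log2 scale (limma, adjusted p = 0.0166). For Pfkm the rise without estrogen was not matched with it, a difference of -1.18 ± 0.267 (limma, adjusted p = 0.0178). The matching interaction with added oocytes called Ldha alone (-1.02 ± 0.203, limma adjusted p = 0.00872), against 2.78% of all tested genes. With array 5 placed by its source name 0 of these 3 were called, and the removal interaction was also lost for Ldha without array 10 or 16 and for Pfkm without array 4, 13 or 16. Slc2a3 had the widest interaction, -1.81 ± 0.574, but also the largest standard error, and was not called (limma, adjusted p = 0.106).

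Of 49 further genes of these and adjoining pathways, 45 had a probe set and 40 were tested. After removal without estrogen 4 were called higher and 8 lower, against 18.0% and 20.7% of all tested genes (38.7% in all). With estrogen 1 was called higher and 12 lower, against 12.9% and 17.3% (30.2% in all). In both directions together these genes were called at rates near or below those of all tested genes. By direction their calls leaned lower, more so with estrogen. The median log2 change over the 40 genes was -0.065 without and -0.25 with estrogen, against 0.01 and -0.05 over all tested genes. Bsg, basigin, the partner that brings monocarboxylate transporters to the membrane, fell by 1.81 and 1.25 on the log2 scale (limma, adjusted p = 0.000136 and 0.00433). Slc16a6 changed by -0.85 ± 0.217 and -2.61 ± 0.217 (adjusted p = 0.00464 and 7.98e-08), and the removal effect on it differed with estrogen (-1.76 ± 0.307, limma interaction adjusted p = 0.00279). Pgls, the lactonase of the oxidative pentose phosphate branch, fell by 1.34 and 0.98 (adjusted p = 0.000141 and 0.00292), and Pgm1, a phosphoglucomutase that links glycogen to glycolysis, by 0.95 and 1.35 (adjusted p = 0.00186 and 0.000109). Mpc1, part of the mitochondrial pyruvate carrier, fell by 0.67 and 0.64 (adjusted p = 0.0333 and 0.0485).

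Pdp1, the phosphatase that reactivates pyruvate dehydrogenase, was higher after removal in both conditions (1.31 ± 0.278 and 2.22 ± 0.278, limma adjusted p = 0.0012 and 8.81e-06), as was Pdk4, which encodes an opposing kinase. Of genes called without estrogen and not with it, Mlxipl, the glucose-responsive transcription factor ChREBP, rose by 1.31 ± 0.179 (adjusted p = 1.85e-05), Slc2a4 by 0.56 ± 0.199 and Arnt by 0.49 ± 0.143, and Pygl, Rpia and Mlxip fell. The interaction was called for Mlxipl (-1.07 ± 0.254, limma adjusted p = 0.0249). Bpgm, Gpd2, Pgm3, Gys1, H6pd, Rbks and Hif1a were called lower with estrogen and not without it, with log2 changes between -1.09 in Pgm3 and -0.61 in Hif1a, and none of them had an interaction that was called. Hif1a, a subunit of hypoxia-inducible factor, changed by -0.01 ± 0.207 without estrogen (limma, adjusted p = 0.976). With added oocytes and no estrogen 9 of the 40 were called higher and 3 lower, against 19.8% and 13.4% of all tested genes (33.2% in all). With estrogen 11 were higher and 1 lower, against 14.2% and 10.4% (24.6% in all). The median log2 change over the 40 genes was 0.20 without and 0.255 with estrogen, against 0.02 and 0.03 over all tested genes. Bsg changed by 1.78 and 1.43 and Pdp1 by -0.92 and -2.32. Estrogen was called for 4 of the 40 in intact complexes (Slc16a6, Gpd2, Hif1a and Mlxipl, all higher), for Pygl (higher) and Bpgm (lower) in oocyte-free complexes, and for Slc16a6 in cocultures.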

How the data were processed

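The deposited table gives 45101 probe sets as log2 values, for which the submitters' processing notes name RMA and Affymetrix Expression Console 1.1. RNA had passed through repeated amplification, per the labels' protocols, which favours 3' ends. Because RMA equalises the arrays' distributions, it hides a change shared by most transcripts. Genome build: not given in the sources used here.

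Probe sets with 1 gene symbol (34958) were kept, symbols were updated through Entrez identifiers, and each gene took its probe set with the highest mean. Genes above the array median on at least 3 of 18 arrays were tested in limma (version 3.58.1, under R 4.3.3: lmFit, eBayes, 6 group means in 1 fit, 11 contrasts, two-sided, Benjamini-Hochberg over 12247 genes, threshold 0.05). The fit was tested on simulated data. Isozyme pairs were compared by exact permutation of arrays, and promoter letters were read from a RefSeq table. Values by array and fits were given for genes called in a removal, added oocyte or estrogen comparison, and ranges for the rest. The genes, lists, motifs and tests were chosen with earlier results of these data known. With 3 arrays a group, the number of arrays limits the precision. Arrays were also blocked by their place in the title numbering, which the labels do not explain. Pearson correlations of such arrays gave no sign of pairing but cannot exclude it.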

Additional observations from a re-analysis of the deposited data

Results flagged for a closer look

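In 3 cases the effect of the oocyte differed between the estrogen conditions by a limma interaction test over all genes. These were 2 of the 35 genes for removal and 1 of 35 for added oocytes, against 3.21% and 2.78% of all tested genes. The counts lie near those shares and are no trait of this set. For Ldha the fall after oocyte removal was smaller with estrogen than without it, an interaction of 0.91 ± 0.203 on the log2 scale (SE, limma adjusted p = 0.0166), and the rise with added oocytes was smaller by -1.02 ± 0.203 (adjusted p = 0.00872). The 2 Ldha values share the OOX and E2 OOX arrays. For Pfkm the removal effect with estrogen minus that without was -1.18 ± 0.267 (limma adjusted p = 0.0178). With array 5 placed by its source name, limma called 0 of these 3, and the part of that array's label in them was not tested.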

How the results depend on the processing

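The counts for oocyte removal, added oocytes and isozyme pairs stayed within 1.5 times of those reported under every alternative run. The estrogen counts did not. Of the 35 genes, estrogen was called in intact complexes (1 reported) for 2 with probe sets averaged, with every probe set tested, with array series as a term and within series 1, for 5 with only the compared groups in the fit and for 8 with array weights. In cocultures (1 reported) it was called for 3 with probe sets averaged, 9 with array weights, and 2 with only the compared groups, with the series term, within series 1 and without arrays 5 and 14. Over all tested genes the calls were 570 as reported and 1931 with array weights. They were 593 with only the compared groups, 755 with the series term, 837 within series 1 and 774 without arrays 5 and 14. In oocyte-free complexes (9 reported) it was called for 1 with only the compared groups, 4 with the series term, 3 without array 5, 0 with array 5 placed by its source name and 2 without arrays 5 and 14, an alternative chosen after seeing the data. Over all tested genes the calls were 1182 as reported and 209, 618, 526, 0 and 698 in these settings in turn. The removal interaction (2 reported) gave 0 with array 5 placed by its source name and 1 without arrays 5 and 14, and the added oocyte interaction (1 reported) gave 0 and, with array weights, 4. Over all tested genes the removal interaction was called for 393 as reported, and for 90 and 387 in these settings. The added oocyte interaction was called for 341 as reported, and for 87 and 1557. Cocultures against intact complexes with estrogen gave 1 with every probe set tested (Pfkl). The cause was not tested.

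Leaving out 1 array at a time gave 20 to 24 calls for removal without and 17 to 21 with estrogen, 19 to 23 and 16 to 20 for added oocytes, 0 to 0 for both coculture comparisons with intact complexes, 1 to 1, 3 to 9 and 1 to 3 for estrogen in intact complexes, oocyte-free complexes and cocultures, 0 to 3 for the removal and 1 to 2 for the added oocyte interaction, and 16 to 18 and 15 to 17 isozyme pairs. The 3 coculture calls came without array 3, and the 0 interaction without array 16.

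No gene's value, on the probe set that represents it or on the mean of its probe sets, changed sign while called. The weakest of the 3 Pfkl probe sets was called the opposite way after removal (0.76 without and 1.32 with estrogen). Of 95 called gene comparisons, 62 kept the call under every alternative, and of 3079 recomputed values 143 lost it. Under a second quantile normalization the split of all called genes moved, to 2146 higher and 2271 lower for added oocytes without estrogen against 2427 and 1639 as reported, while 16 of the 35 genes were higher and 5 lower. Centring the arrays moved the median of all genes by up to about 0.1, to -0.08 for estrogen in intact complexes against 0.03. A replicate block from the title numbering, whose meaning the labels do not give, ended the removal calls of Slc2a3 and Fbp2 without estrogen (limma adjusted p = 0.0517 and 0.0541) and changed no count by over 1.5 times. Deviations from the group means had a median r of -0.004 over 45 pairs of arrays in the same block (-0.33 to 0.42). Over 90 pairs from different blocks the median was -0.0006 (-0.42 to 0.33). This gave no sign of pairing but cannot exclude it. Levels near background cannot be ranked, as no detection calls were used.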
